A study of Drosophila melanogaster with 2 samples.

Results

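Transfer RNA (tRNA) genes were taken from the Ensembl annotation of the Drosophila melanogaster genome as all nuclear genes whose name starts with tRNA: on the arms 2L, 2R, 3L, 3R and X and on chromosome 4. This gave 295 tRNA genes, 5 of them annotated as pseudogenes, among 18164 genes in all, and none lay on chromosome 4. Genes within 1000 bp of each other were joined into 176 loci, because genes that lie together share summits. The measurement was where the protein ATbp, fused at its C-terminal end to green fluorescent protein in a transgenic line whose strain is labelled ATbp-GFP, lay on chromatin of whole embryos of mixed sex aged 0 to 14 h. Chromatin was sonicated to 200 to 800 bp and precipitated with an antibody against GFP per the sample descriptions, although the antibody field of the labels names ATbp, in 2 biological replicates that form the only group. The tissue is a mixture of all embryonic cells and stages, and no untagged embryos or control libraries were analysed here, so values say where summits lie and not in which cells.

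tRNA genes are short genes read by RNA polymerase III. Their promoter lies inside the transcribed part: the factor TFIIIC binds the internal elements box A and box B, TFIIIB is placed just upstream of the gene, and transcription ends in a run of T. Isotype means here the amino acid in the gene name, with initiator methionine (iMet) kept apart from other methionine genes. Most isotypes have several genes, many of them clustered and many with identical copies. Aminoacyl-tRNA synthetases are the enzymes that load the amino acid.

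The sequences that the summits turn on come from the reference genome of release 6 (dm6), plus strand for the summit windows and the gene's own strand for the genes. Each window holds the summit and 50 bp on either side of it, for summits of the list that passed the authors' irreproducible discovery rate (IDR) threshold, and its capitals mark the longest unbroken run of A and T, or the first of 3 runs of equal length in the Phe-GAA-1-2 window. The windows are those at tRNA:Tyr-GTA-1-8 (chr3R:8669311-8669411), the strongest at a tRNA gene, at tRNA:Phe-GAA-1-2 (chrX:6744188-6744288), which lies on the start of the ribosomal protein gene RpL17, at tRNA:Gln-TTG-2-1 (chrX:3427707-3427807), far from any other start, at tRNA:Asp-GTC-1-5 (chr2L:8541826-8541926), the richest in A and T, and at tRNA:Val-CAC-1-1 (chr3R:17617719-17617819), where the gene itself begins inside the window.
Tyr-GTA-1-8 summit window: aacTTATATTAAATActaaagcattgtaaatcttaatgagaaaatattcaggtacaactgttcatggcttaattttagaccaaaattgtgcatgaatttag
Phe-GAA-1-2 summit window: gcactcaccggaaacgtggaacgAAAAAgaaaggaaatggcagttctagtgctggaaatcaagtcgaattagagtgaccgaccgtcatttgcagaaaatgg
Gln-TTG-2-1 summit window: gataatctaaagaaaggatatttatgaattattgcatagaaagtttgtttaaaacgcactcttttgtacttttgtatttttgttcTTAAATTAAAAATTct
Asp-GTC-1-5 summit window: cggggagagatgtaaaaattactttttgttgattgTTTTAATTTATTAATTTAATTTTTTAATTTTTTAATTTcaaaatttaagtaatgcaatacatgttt
Val-CAC-1-1 summit window: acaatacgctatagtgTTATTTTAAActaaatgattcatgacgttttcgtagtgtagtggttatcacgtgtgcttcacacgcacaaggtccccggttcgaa

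The genes of 4 loci show the internal promoter that a summit on the gene would cover. Capitals mark the letters GCNNAGNNG, searched as box A, and GTTCNANNC, searched as box B, where N is any base. tRNA:Tyr-GTA-1-8 (chr3R:8669081-8669174, minus strand) is longer than most because it holds an intron between both boxes, tRNA:Leu-TAA-2-1 (chr3R:24112964-24113047, plus strand) has the long variable arm of leucine tRNAs, tRNA:Lys-TTT-1-1 (chr2L:8290727-8290799, plus strand) has the usual length, and tRNA:Val-CAC-1-1 (chr3R:17617761-17617833, plus strand) matches the box B letters but not the box A letters.
Tyr-GTA-1-8 gene: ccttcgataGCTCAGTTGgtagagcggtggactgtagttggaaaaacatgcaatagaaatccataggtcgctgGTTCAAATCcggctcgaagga
Leu-TAA-2-1 gene: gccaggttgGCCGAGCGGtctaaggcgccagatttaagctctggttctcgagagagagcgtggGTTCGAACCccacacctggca
Lys-TTT-1-1 gene: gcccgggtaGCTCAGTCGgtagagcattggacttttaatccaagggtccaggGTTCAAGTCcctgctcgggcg
Val-CAC-1-1 gene: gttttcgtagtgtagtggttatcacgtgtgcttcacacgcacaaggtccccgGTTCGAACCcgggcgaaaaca

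Nearly all tRNA genes held the box B letters, with or without a summit nearby. Box B letters occurred, on either strand of the first 100 bp, in 268 of 295 tRNA genes (90.8%) and in 3.76% of the other 17869 genes; among tRNA genes near an IDR summit they occurred in 24 of 27 (88.9%). Box A letters, which are stricter than the element, occurred in 153 tRNA genes (51.9%), in 16 of the 27 near an IDR summit, and in 13.7% of other genes. In the 250 bp before to 50 bp after the 5′ end, the window usual for promoters, box B letters occurred in 62 tRNA genes (21.0%) and in 10.2% of other genes, and box A letters in 183 tRNA genes (62.0%) and in 31.8% of other genes. A run of TTTT followed within 30 bp of the end of 281 tRNA genes (95.3%), including 25 of the 27. A match to letters is a description and not a measured site.

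The authors deposited 4 lists of peaks on dm6. The IDR list holds 5921 peaks, and the relaxed lists of both replicates together and of each replicate hold 30000 each, most of them absent from the IDR list. A tRNA gene was counted where a summit, the point of highest signal of a peak, lay in it or within 500 bp of either end. For comparison at equal length, the strongest 5921 summits of each replicate are called its top. The signal value is the authors' own and was used only to rank summits within 1 list. The files hold no read counts, so the depth of either library is unknown, and with 2 replicates every value below describes these 2 libraries.

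More tRNA genes had a summit in replicate 1 than in replicate 2. In the relaxed lists, 189 of 295 genes (64.1%) had a summit in replicate 1 and 89 (30.2%) in replicate 2. In the tops, 60 genes (20.3%) had one in replicate 1 and 21 (7.12%) in replicate 2. The pooled relaxed list reached 157 genes (53.2%), and the IDR list 27 (9.15%). By locus, which counts a shared summit once, the relaxed lists reached 112 of 176 loci in replicate 1 (63.6%, 95% Wilson interval 56.3 to 70.4%) and 62 in replicate 2 (35.2%, 28.6 to 42.5%). The tops reached 35 loci (19.9%, 14.7 to 26.4%) and 17 loci (9.66%, 6.12 to 14.9%), and the IDR list reached 19 (10.8%, 7.02 to 16.2%). The intervals cover counting error only.

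Other genes set the background. Measured alike from the 5′ end of the gene, 27 tRNA genes (9.15%) and 11.2% of other genes had an IDR summit within 500 bp, and among protein-coding genes, at any of their starts, the share was 14.9%. In the pooled relaxed list the shares were 52.2% of tRNA genes and 30.7% of other genes. In the relaxed list of replicate 1 they were 63.7% and 35.0%, and in that of replicate 2 they were 29.8% and 28.9%. In the tops, 20.3% of tRNA genes and 11.6% of other genes were reached in replicate 1, and 7.12% of tRNA genes and 11.2% of other genes in replicate 2. The tRNA genes thus stood above the background in replicate 1 and near it in the full replicate 2 list. In the top of replicate 2 and in the IDR list the share of tRNA genes was the lower. By locus, the Wilson intervals in these lists were 6.12 to 14.9% and 7.02 to 16.2%, and both held 11.2%. A locus window covers the whole locus and 500 bp on either side, so it is longer than that of a 5′ end. A longer window can raise the share, so the locus shares and the 11.2% of other genes are not measured alike. Whether tRNA genes lie below the background in these lists was not tested. Small nucleolar RNA genes, another class of short genes, were counted in the gene or within 500 bp of either end. Of 269, 12 (4.46%) were reached in the IDR list, 58 (21.6%) in the relaxed list of replicate 1 and 31 (11.5%) in that of replicate 2. With the same window the shares of tRNA genes were 9.15%, 64.1% and 30.2%. More of these genes too were thus reached in replicate 1 in the relaxed lists, while the tops reached 14 in replicate 1 and 13 in replicate 2.

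How tRNA genes stood beside the background also changed with how deep into a list the count went. Among the strongest 1000 summits of replicate 1, 1.69% of tRNA genes and 2.46% of other genes were reached. At 3000 summits the shares were 7.12% and 6.09%, and at 10000 they were 32.2% and 17.9%. The strongest 1000 summits reached 5 tRNA genes at 4 loci and the strongest 3000 reached 21 at 15 loci. At these lengths the shares were thus close and rested on few genes that share summits. At 10000 summits the tRNA share was clearly the higher. In replicate 2, the strongest 1000 summits reached 0.678% of tRNA genes and 2.89% of other genes, and the strongest 10000 reached 9.83% and 16.1%. There the tRNA share lay below that of other genes at each length up to 25000 summits, where the shares were 26.1% and 26.4%.

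**Figure D1:**
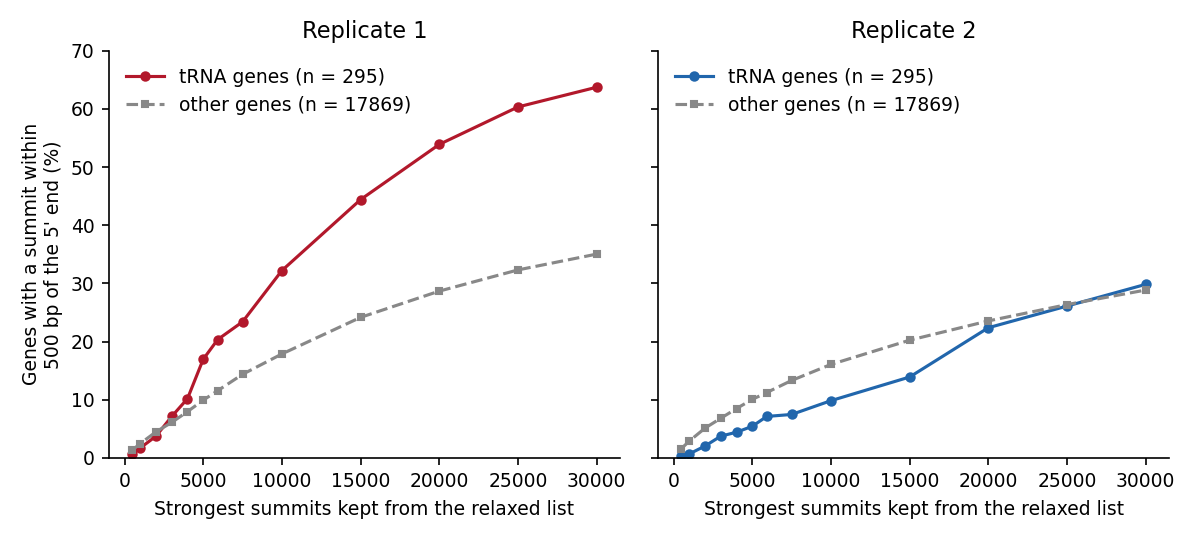
Percentage of tRNA genes (solid) and of other genes (dashed) with a summit within 500 bp of the 5′ end, as more of the strongest summits of each replicate's relaxed list are kept. In replicate 1 the tRNA curve stays close to the other curve up to 3000 summits and rises above it beyond. In replicate 2 it meets the other curve only near the full list.

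The replicates differed mostly by tRNA genes that replicate 1 had and replicate 2 lacked. In the relaxed lists, 81 genes had a summit in both, 108 in replicate 1 only, 8 in replicate 2 only and 98 in neither, so that 42.9% of the replicate 1 genes and 91.0% of the replicate 2 genes were shared. For other genes the shared parts were 60.3% and 73.2%. In the tops, 17 tRNA genes were shared, 43 were in replicate 1 only and 4 in replicate 2 only, which shared 28.3% and 81.0%, against 70.8% and 72.8% for other genes. The cause of the difference between replicates was not tested.

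Ranks told the same for the loci found in both. Of 58 loci with a relaxed summit in both replicates, 43 ranked better in replicate 1 and 15 in replicate 2, and the median rank was 7181.5 in replicate 1 and 14200 in replicate 2. Over these 58 loci, which share the 2 libraries, Spearman's rho between the ranks was 0.672. The strongest summits of the replicates lay within 100 bp of each other at 27 of the 58, with a median gap of 175.5 bp. All 19 loci with an IDR summit were in both relaxed lists, 18 of them in the top of replicate 1, 14 in the top of replicate 2 and 13 in both. At these 19 loci the gap had a median of 28 bp, with 14 loci within 50 bp. The IDR list keeps peaks found in both replicates. Presence in both relaxed lists and a small gap therefore follow in part from how these loci were selected.

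**Figure D2:**
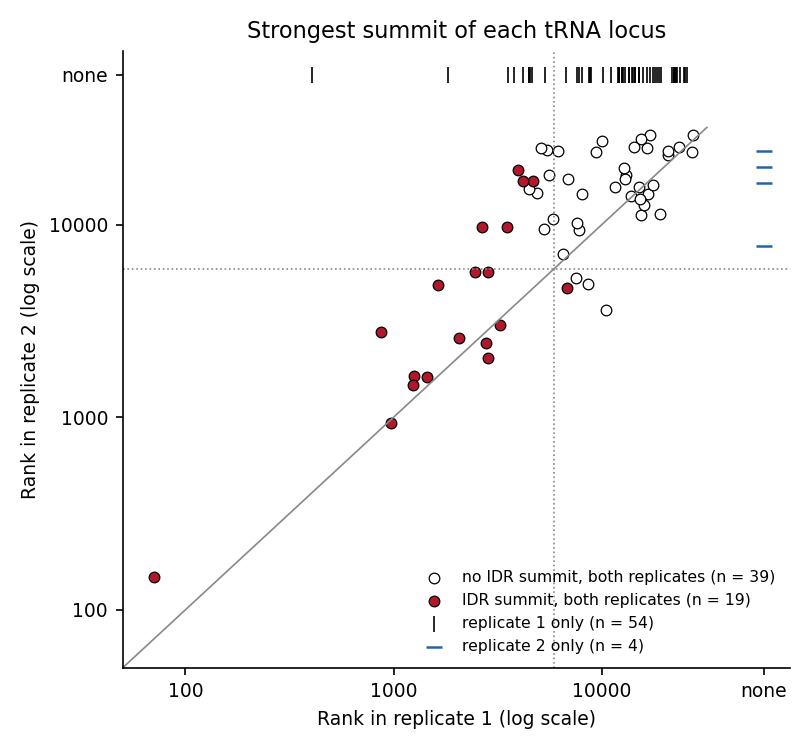
Rank of the strongest summit within 500 bp of each tRNA locus in replicate 1 (horizontal) and replicate 2 (vertical), on log axes where lower is stronger; dotted lines mark rank 5921 and the grey line equal ranks. Most points lie above the grey line, and 54 loci have a summit in replicate 1 only, drawn at the upper edge, against 4 in replicate 2 only, at the right edge.

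The strongest tRNA locus stood apart from the others. The genes tRNA:Tyr-GTA-1-6, tRNA:Tyr-GTA-1-7 and tRNA:Tyr-GTA-1-8 lie within chr3R:8668116-8669174, inside the annotated spans of p (pink) and CG8036. Their summit at position 8669361 ranked 71 in replicate 1 with a signal of 784, 148 in replicate 2 with 565, and 87 in the IDR list with 1362. It lay 187 bp upstream of tRNA:Tyr-GTA-1-8 and 257 bp from a start of CG8036. The tRNA gene was thus nearer than that start, while the summit itself lay inside the annotated spans of p and CG8036. Only the gene nearest to it counted: tRNA:Tyr-GTA-1-7, 656 bp away, fell outside the limit. No other tRNA locus had an IDR rank better than 939.

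The loci next in strength were mostly single genes with summits 200 to 400 bp away. tRNA:Phe-GAA-1-2 on X (chrX:6744471-6744543) had rank 977 in replicate 1 and 931 in replicate 2, and its summit lay 0 bp from a start of RpL17, a protein of the large ribosomal subunit, and 233 bp from the tRNA gene. tRNA:Val-CAC-2-5 (chr3R:19672277-19672349), inside Naam, which encodes a nicotinamidase, ranked 1240 and 1471, with the summit 396 bp from the tRNA gene and 431 bp from a start of Naam. tRNA:Leu-TAA-2-1 ranked 1454 and 1617, 204 bp upstream of the gene and 371 bp from CG13605. These places hold both a tRNA gene and a promoter read by RNA polymerase II, and a peak list does not tell apart which of them a summit belongs to. tRNA:Gln-TTG-2-1 (chrX:3427452-3427523), inside CG12535 and the long noncoding RNA gene CR44999, ranked 2790 and 2435 with its summit 234 bp upstream of the gene, and the nearest other start, of CG14269, was 8050 bp away.

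Arm 2R held most of the remaining strong loci. The pair tRNA:Trp-CCA-2-2 and tRNA:Gly-GCC-1-9 (chr2R:18639557-18639796) ranked 1249 in replicate 1 and 1629 in replicate 2, 213 bp from the tryptophan gene and 74 bp from a start of CG30122. The pair tRNA:Arg-CCT-1-2 and tRNA:Arg-CCT-1-3 (chr2R:20000296-20000891) ranked 868 and 2766, with the summit between both genes and 4443 bp from the nearest other start, of CG16898. It was therefore stronger in replicate 1 by rank. tRNA:Leu-CAG-1-1 (chr2R:8683215-8683297) ranked 2067 and 2593, 290 bp from the gene and 3634 bp from CG30355. tRNA:Gly-TCC-2-2 (chr2R:21848407-21848478) ranked 1630 and 4857, 205 bp from the gene and 9885 bp from CG4372. A cluster of 5 genes led by tRNA:Glu-TTC-1-5 (chr2R:19727460-19729353) ranked 2857 and 2038, 242 bp from the tRNA gene and 66 bp from snoRNA:185, a small nucleolar RNA gene.

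The 9 weaker loci of the IDR list ranked from 2857 to 5758 in it. The pair tRNA:Arg-TCT-1-1 and tRNA:Met-CAT-1-1 led them, with rank 2462 in replicate 1 and 5679 in replicate 2. The pair ending in tRNA:Asp-GTC-1-5 ranked 2844 and 5667, 44 bp past the gene and 271 bp from Sema1a, which encodes an axon guidance semaphorin. Its strongest summits in the replicates lay 237 bp apart, the widest gap of the 19, because the locus has 2 summits in replicate 1. The weaker one, of rank 4050 at position 8542059, lay beside the replicate 2 summit at 8542085, and the IDR list also holds a summit there, of rank 4456. The last 3, at tRNA:Ala-TGC-2-1, tRNA:Val-CAC-1-1 and tRNA:Ser-TGA-2-1, ranked 3943, 4185 and 4682 in replicate 1 and 19248, 16889 and 16948 in replicate 2. They passed the IDR threshold with weak replicate 2 summits that lay 4, 24 and 4 bp from the replicate 1 summits.

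**Figure D3:**
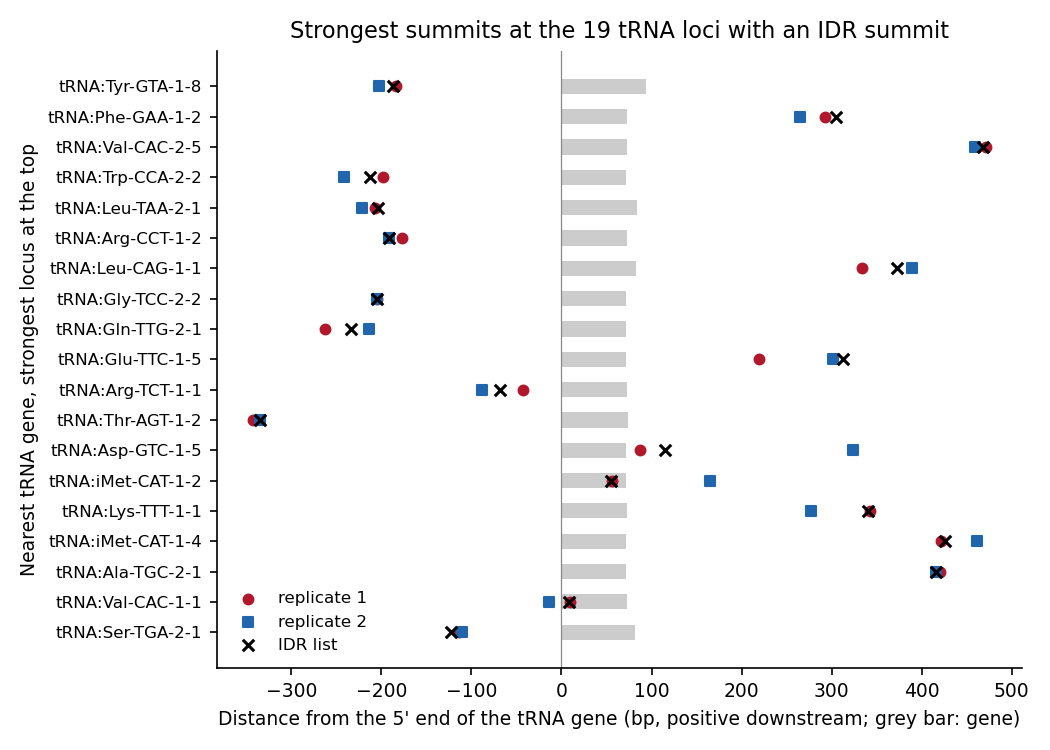
Position of the strongest summit in the IDR list (cross), replicate 1 (circle) and replicate 2 (square) relative to the 5′ end of the nearest tRNA gene at the 19 loci with an IDR summit, strongest locus at the top; the grey bar is the gene. 9 IDR summits lie upstream and 10 downstream of the 5′ end, and 2 lie on the bar.

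At most loci with an IDR summit, the strongest one lay outside the tRNA gene. For the strongest summit of each of the 19 IDR loci, the distance from the nearest tRNA gene had a median of 213 bp. Of these summits, 2 lay inside a gene, at tRNA:iMet-CAT-1-2 and tRNA:Val-CAC-1-1. In all, 3 (15.8%) lay in a gene or within 50 bp of it, as do 21.9% of all bases within 500 bp. Another 12 lay more than 200 and up to 400 bp away. A weaker IDR summit, of rank 5452 at position 11652706, also lay inside a gene, tRNA:Met-CAT-1-1. The 19 strongest summits fell on both sides, 9 upstream and 10 downstream of the 5′ end, from 335 bp before it to 468 bp after it. No IDR summit of a locus lay between 400 bp and the limit. The members nearest the limit were tRNA:Val-CAC-2-5 at 396 bp inside it and tRNA:Ile-AAT-1-9 at 528 bp outside it.

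Distance was a second measure in which the replicates differed. In the relaxed list of replicate 1, 45 of 112 loci (40.2%) had their strongest summit within 50 bp of a tRNA gene, 30 of them inside one, and the median distance was 88 bp. In replicate 2, 10 of 62 loci (16.1%) did, 7 of them inside, and the median was 214 bp. Of all bases within 500 bp of a tRNA gene, 21.9% lie in a gene or within 50 bp of it. The replicate 1 share thus lay above that of the bases and the replicate 2 share below it. In the tops, 13 of 35 replicate 1 loci (37.1%) and 0 of 17 replicate 2 loci had the summit within 50 bp.

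In the top of replicate 1, a larger share of the loci missing from the top of replicate 2 had the summit on or beside the gene. Of the 13 loci in both tops, 2 had the replicate 1 summit within 50 bp and the median distance was 205 bp. Of the 22 loci in the top of replicate 1 only, 11 had it within 50 bp, 8 of them inside a gene, and the median was 38.5 bp. In the relaxed lists, 19 of 58 loci (32.8%) with a replicate 2 summit and 26 of 54 (48.1%) without one had the replicate 1 summit within 50 bp. Many tRNA genes have identical copies: 238 of 295 share their whole sequence with another gene, 100 distinct sequences make up the set, and 2 of them, those of the tRNA:Gly-GCC-1 and tRNA:Lys-CTT-1 genes, have 13 copies each. Of the 53 genes with the strongest replicate 1 summit in them or within 50 bp, 45 have an identical copy, and in replicate 2 it was 9 of 11. How reads that match several copies were placed is not given in the sources used here, and its part in these counts was not tested.

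**Figure D4:**
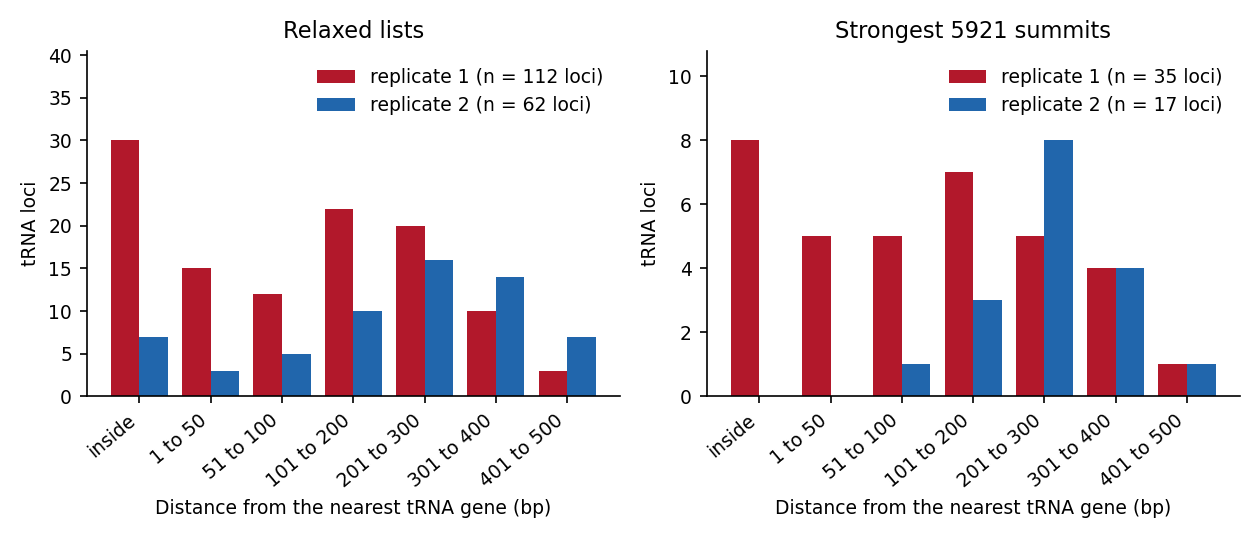
Number of tRNA loci by the distance of the strongest summit from the nearest tRNA gene, in replicate 1 and replicate 2, for the relaxed lists (left) and the strongest 5921 summits (right). The highest replicate 1 bars are those inside the gene, with 30 and 8 loci, while the highest replicate 2 bars stand at more than 200 and up to 300 bp, with 16 and 8 loci.

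Loci in the top of replicate 1 only differed in what replicate 2 held nearby. Of the 22, 10 had no replicate 2 summit within 500 bp, and 17 had no IDR summit. tRNA:Ile-AAT-1-9 on arm 2R (chr2R:19715565-19715638) ranked best among them, 408 in replicate 1, but it is a case of the limit: the replicate 1 summit lay 483 bp from the gene, and a replicate 2 summit of rank 881 lay 95 bp from that one, just beyond 500 bp. It was the only 1 of the 22 with a summit in the top of replicate 2 within 100 bp of its own. The 3 histidine genes tRNA:His-GTG-1-1 to tRNA:His-GTG-1-3 (chr2R:12333926-12335066) ranked 1822 in replicate 1, and the nearest replicate 2 summit was 7358 bp away. The pooled relaxed list, made from both replicates, held no summit within 500 bp of this histidine locus. The 3 asparagine genes tRNA:Asn-GTT-1-1 to tRNA:Asn-GTT-1-3 (chr2R:6152603-6153579), inside the ecdysone receptor gene EcR, ranked 3547 in replicate 1, with the nearest replicate 2 summit 1983 bp away. The other 2 of the first 5 are loci of initiator methionine genes.

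The top of replicate 2 held 4 loci that the top of replicate 1 lacked, and each had a weaker replicate 1 summit. The pair tRNA:Phe-GAA-1-6 and tRNA:Phe-GAA-1-7 ranked 3586 in replicate 2 and 10484 in replicate 1. tRNA:Lys-TTT-1-1, inside the kinase gene Btk, ranked 4690 in replicate 2 and 6791 in replicate 1, and it was the only 1 of the 4 with an IDR summit. tRNA:Pro-AGG-1-1 ranked 4943 and 8563, and tRNA:Thr-AGT-1-4 ranked 5295 and 7503, in the same order. None of the 4 had its replicate 2 summit within 100 bp of the gene.

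By isotype, IDR summits were spread thinly. Of 22 isotypes, 17 had at least 1 gene near an IDR summit and none had more than 3. The 5 with 0 were Asn with 10 genes, Cys with 7, His with 6, Ile with 12 and the single selenocysteine gene, which was the only isotype with no summit in any list. The strongest gene of each isotype ranked from 87 for Tyr, through 939 for Phe, 1196 for Val and 1267 for both Gly and Trp, to 5386 for Pro and 5758 for Ser. Many genes of 1 isotype share sequence, and those of 1 locus share summits, so these counts are not independent.

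Initiator methionine genes, whose tRNA starts every protein, had the highest share. Of 6 such genes, 3 had an IDR summit, 5 a summit in the relaxed list of replicate 1 and 5 in that of replicate 2. The 3 come from 2 loci. tRNA:iMet-CAT-1-1 and tRNA:iMet-CAT-1-2 with tRNA:Glu-TTC-1-4 (chr2R:19725620-19726213) ranked 2660 in replicate 1 and 9767 in replicate 2, with the IDR summit inside tRNA:iMet-CAT-1-2. tRNA:iMet-CAT-1-4 and tRNA:iMet-CAT-1-5 (chr3L:14673942-14674415), inside the peptidase gene ome, ranked 3494 and 9739 with the IDR summit 355 bp from the first gene. Both loci were in the top of replicate 1 and neither in that of replicate 2. The elongator methionine genes, also 6, had an IDR summit in 1 case, a replicate 1 summit in 2 and a replicate 2 summit in 3, and were the only isotype with more genes in replicate 2.

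The excess of replicate 1 was seen across isotypes. In the relaxed lists 19 isotypes had more genes in replicate 1, 1 had more in replicate 2 and 2 had as many. In the tops the counts were 16, 2 and 4. The gap was wide for Leu, with 16 of 22 genes in replicate 1 and 4 in replicate 2, for Arg, with 17 and 6 of 26, and for Ile, with 9 and 3 of 12. Among anticodons, CAG of leucine had 7 of 8 genes in replicate 1 and 1 in replicate 2, and 6 of them in the top of replicate 1. The anticodon ACG of arginine had 8 of 10 genes in replicate 1, 1 in replicate 2 and 0 in either top.

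**Figure D5:**
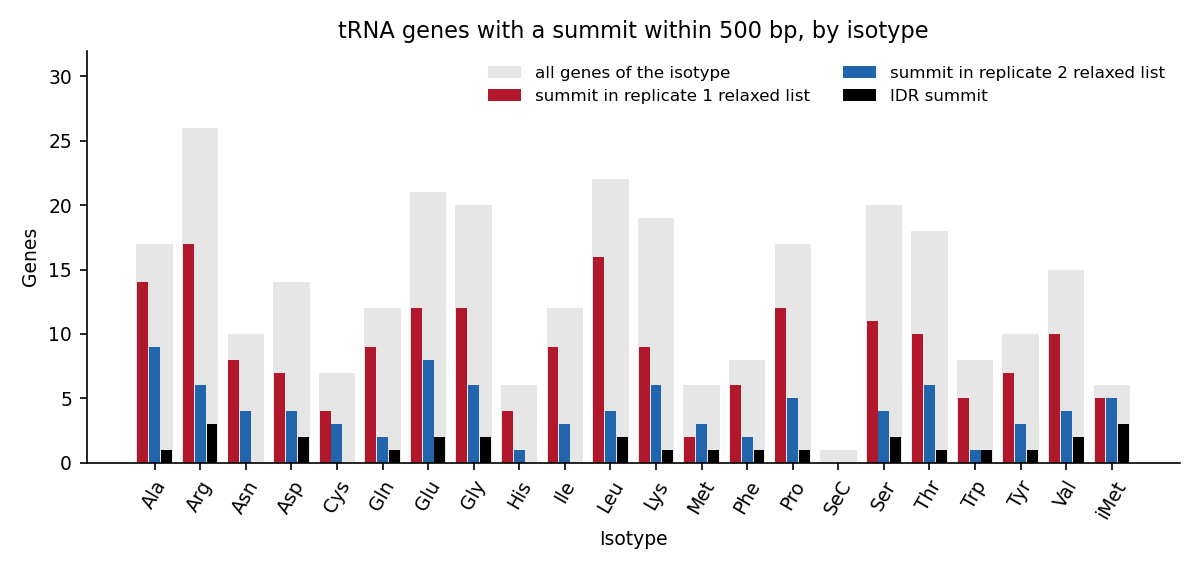
Number of tRNA genes of each isotype (grey) and how many have a summit within 500 bp in the relaxed list of replicate 1, in that of replicate 2 and in the IDR list. The replicate 1 bar is the higher of the replicate bars in 19 of 22 isotypes, and the IDR bar reaches at most 3.

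A larger share of clustered loci than of single genes was reached in the IDR and relaxed lists, over longer windows. Of 105 loci of 1 gene, 7 (6.67%) had an IDR summit, 53 (50.5%) a replicate 1 relaxed summit and 29 (27.6%) a replicate 2 relaxed summit. Of 65 loci of 2 to 4 genes, 11 (16.9%) had an IDR summit, 53 (81.5%) a replicate 1 summit and 28 (43.1%) a replicate 2 summit. Of 6 loci of 5 or more genes, 1, 6 and 5 did. The median span was 73 bp for single genes, 535 bp for 2 to 4 genes and 1874 bp for 5 or more, so a larger locus also offered more bases in which a summit could fall, and the part of length was not tested. In the top of replicate 1, 22 loci of 2 to 4 genes (33.8%) and 10 single genes (9.52%) had a summit. In the top of replicate 2 the shares were close, with 7 loci of 2 to 4 genes (10.8%) and 9 single genes (8.57%).

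The ranks of the summits at the largest clusters varied widely. Of the 6 loci of 5 or more genes, 3 were in the top of replicate 1 and 1 in that of replicate 2. The 7 genes of serine and arginine tRNAs on X (chrX:14014814-14017284) ranked 15266 in replicate 1 and 13565 in replicate 2. The 7 genes of isoleucine and leucine tRNAs on arm 2R (chr2R:13430282-13432794), inside ATP8A, ranked 4905 and 14589. Clusters of 6 genes lay on 3L (chr3L:3095737-3097590, cysteine and lysine), with ranks 4451 and 15250, and on 3R (chr3R:8139533-8141042, asparagine and arginine), with rank 8759 in replicate 1 and no replicate 2 summit. None of these 4 had an IDR summit. The only cluster of 5 or more genes that did was the glutamate cluster on arm 2R, with ranks of 2857 and 2038.

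Across arms, 2R held 100 of the 295 genes and 16 of the 27 near an IDR summit. On 3R 5 of 79 genes had one, on 2L 3 of 41, on X 2 of 26 and on 3L 1 of 49. In the top of replicate 1, 31 genes lay on 2R, 12 on 3R, 10 on 3L, 5 on 2L and 2 on X, and in the top of replicate 2 the counts were 10, 5, 0, 4 and 2 in the same order. Arm 3L thus had 10 genes in 1 top and 0 in the other. Genes of 1 locus share summits, and the 100 genes of 2R form 54 loci and the 49 of 3L form 29, so these counts are not independent. The shares of other genes by arm were not measured, and whether arms differ was not tested.

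In the IDR list and the tops, the share of loci with a summit was higher where another gene's start was near. Of 37 loci with a transcription start of another gene within 500 bp, 6 (16.2%) had an IDR summit, 10 (27.0%) a summit in the top of replicate 1 and 7 (18.9%) in that of replicate 2. Of 139 loci without one, 13 (9.35%), 25 (18.0%) and 10 (7.19%) did. In the relaxed lists the shares with and without such a start were 73.0% and 61.2% in replicate 1. They were 35.1% and 35.3% in replicate 2, and 54.1% and 55.4% in the pooled list. Measured from the summit, 7 of the 19 IDR summits lay within 500 bp of another gene's start and 12 lay farther. Of the 19, 3 were nearer to that start than to the tRNA gene and 16 nearer to the tRNA gene. The summits were kept only within 500 bp of a tRNA gene, with no limit on the other start. This split therefore follows in part from the rule and does not tell which gene a summit belongs to. Loci inside or overlapping another gene were 86 of 176 in all, and 6 of the 19 with an IDR summit.

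Further genes read by RNA polymerase III fell into 2 sets. All 100 annotated 5S ribosomal RNA genes had 0 summits in every list; they are near-identical repeats, and how such reads were treated is not given in the sources used here. Of 10 other genes, for U6, 7SK, the signal recognition particle RNA, RNase P and RNase MRP, 1 had an IDR summit, 3 a replicate 1 relaxed summit and 2 a replicate 2 relaxed summit, beside 11.2%, 35.0% and 28.9% of other genes, so their counts lay near the background. The 1 was snRNA:7SKa (chr3R:7474553-7474996), a gene of the RNA that holds back the elongation factor P-TEFb, with the summit inside the gene, rank 1571 in replicate 1 and 3142 in replicate 2. RNaseMRP:RNA ranked 6397 in replicate 1 and 14519 in replicate 2.

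Mean A+T content under tRNA summits was lower than under all summits in the IDR list and the tops, and nearly the same in the relaxed lists. With 50 bp on either side of the summit, A+T content averaged 62.3 ± 9.01% at the 19 IDR summits of tRNA loci and 64.7 ± 9.26% at all 5921 (SD over summits), with tRNA values from 49.5% at tRNA:Leu-CAG-1-1 to 82.2% at tRNA:Asp-GTC-1-5. In the tops it averaged 59.7 ± 10.2% at 35 tRNA summits and 63.4 ± 9.58% at all summits of replicate 1, and 61.7 ± 8.16% at 17 tRNA summits and 65.3 ± 8.97% at all summits of replicate 2. In these 3 lists the mean of the tRNA summits was the lower, by less than 1 SD over summits. That SD describes the spread of single summits, and whether the means differ was not tested. In the relaxed lists the means nearly coincided, at 59.2% for tRNA summits and 59.4% for all summits in replicate 1, and 59.9% and 59.6% in replicate 2. In the pooled list the tRNA mean was the higher by less than 1 percentage point.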

How the data were processed

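Peaks of a ChIP-seq experiment on ATbp-eGFP embryos, 2 replicates in 1 group, were used as deposited on dm6. Per the labels, relaxed lists were made as input for IDR from each replicate and from both replicates pooled, against a control, while the IDR thresholded list rests on the 2 replicates. The signal value and the −log10 of the q-value of each peak are those deposited by the authors; ranks here follow the signal. The lists on dm3 were not used. For the IDR threshold, peak caller, aligner and placing of reads that match several places, the entry is: not given in the sources used here. Depth is unknown.

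From these lists, summits were set against Ensembl release 115 (BDGP6.54) (1-based) in pandas 2.3.3 and NumPy 2.4.6 under Python 3.11.15, with SciPy 1.17.1 for rank correlation and intervals. A gene counted with a summit in it or within 500 bp, and the strongest such summit was kept. Sequences are from the RefSeq copy of the release 6 assembly. The search was tested on simulated summits. No test was run: with 1 group, members are described by counts, shares with 95% Wilson intervals, and ranks. The members, the gene lists and the rules were chosen with earlier results of these data known. Loci named are the 10 with the strongest IDR summit, the first 5 of each top missing from the other (4 existed for replicate 2), the largest clusters, the members nearest the limit and the strongest gene of each isotype; other polymerase III and synthetase genes are named where an IDR summit was near. The lower-ranked IDR loci, the clusters of 6 genes, RNaseMRP:RNA and the anticodons CAG and ACG were named after their values were seen. Alternatives were other windows, other joining distances, overlap of the peak interval, stronger peaks, other list lengths and 1 replicate alone.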

Additional observations from a re-analysis of the deposited data

How the results depend on the processing

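Over 59 alternative values, 36 stayed near the value reported (within 1.5 times for a count, within 1 SD otherwise) and 23 moved further. Counts and A+T content cannot change sign. The signed distance from the 5′ end, the only value that could, did not. Counting only peaks whose interval overlaps the gene gave 8 genes and 6 loci in the IDR list, 95 genes in the pooled relaxed list, 35 in the relaxed list of replicate 2, 36 in the top of replicate 1, and 4 genes and 3 loci in that of replicate 2. A window of 250 bp gave 15 genes in the IDR list, 50 in the relaxed list of replicate 2, and 12 genes and 11 loci in its top, and one of 1000 bp gave 139 and 33 genes in the relaxed list and the top of replicate 2. The stronger part of the IDR list, its upper 50% by signal, reached 14 genes and 11 loci. Taking 1 replicate's top in place of the IDR list gave 21 to 60 genes and 17 to 35 loci. The strongest 1000 summits reached 5 genes and 4 loci in replicate 1 and 2 genes and 2 loci in replicate 2; the strongest 10000 reached 96 genes in replicate 1. With a limit of 1000 bp, 10 IDR loci had another start near. Replicate 1 gave more tRNA genes than replicate 2 in each pair of these settings. No paired analysis was possible because the replicates form 1 group. The files hold peaks and no reads, so a missing summit means that none was listed, and the cause of the difference between replicates was not tested. Whether summits 200 to 400 bp away mark the tRNA gene or a neighbour was not tested.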

Other observations

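The genes of the aminoacyl-tRNA synthetases load tRNAs with their amino acids and are read by RNA polymerase II. Of 33 such genes, 6 (18.2%) had an IDR summit within 500 bp of a start, against 14.9% of other protein-coding genes. In the relaxed lists, 19 (57.6%) had a summit in replicate 1 and 11 (33.3%) in replicate 2, against 40.6% and 33.7% of other protein-coding genes. Like the tRNA genes, more of them had a relaxed summit in replicate 1, while each top held 8 (24.2%), against 15.4% and 14.9% of other protein-coding genes. Among enzymes of the cytosol, or of both compartments, 5 of 18 had an IDR summit, and among those named for the mitochondrion 1 of 15 did. Of the 6 with an IDR summit, 4 ranked better in replicate 2. IleRS ranked 1636 in replicate 1 and 1013 in replicate 2, SerRS 1924 and 904, ThrRS 1917 and 1280, and GluProRS, which loads both glutamate and proline, 2812 and 1104. The other 2 ranked better in replicate 1: AlaRS ranked 2396 and 4153, and the mitochondrial CysRS-m ranked 5793 and 6163. The IDR summits lay 4 bp from a start for SerRS and 243 bp for ThrRS, the nearest and the farthest of the 6. Whether these shares differ from those of other genes, or the ranks from those of tRNA loci, was not tested.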
